A study of Homo sapiens with 3 samples.

Results

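The S100 genes encode small calcium-binding proteins, and 10 of them were followed on 3 bead arrays of the breast cancer line MDA-MB-231: S100A2, S100A3, S100A4, S100A6, S100A10, S100A11, S100A13, S100A14, S100A16 and S100P. They were taken by name, as all probes that the platform's annotation assigns to these symbols, which gave 17 probes for 10 of the 20045 genes on the array. Total RNA was hybridised to Illumina bead arrays with a Cy3 label, 1 array per group. MDA-MB-231 is an established human line of triple-negative, mesenchymal-like breast cancer, and all cells grew in DMEM with serum, penicillin and streptomycin. The groups were cells given an expression vector for FBP1 (fructose-1,6-bisphosphatase 1, a gluconeogenic enzyme), cells given an empty vector, and a control named wt, of which the labels say nothing more. Neither the vector's promoter nor whether the cells were pools or clones is given in the sources used here.

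An S100 protein is a small dimer whose subunits each carry a pair of EF-hand loops. When calcium enters these loops, the protein opens a surface that grips a partner, such as an annexin, a myosin heavy chain or ezrin, so that each family member couples a calcium signal to its own targets. Some members are also released from cells and act on receptors such as RAGE. In breast cancer the family is best known for S100A4, which is linked to cell motility and metastasis. Most of the genes lie side by side in one cluster on chromosome 1, while S100P lies on chromosome 4.

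FBP1 itself, read by 1 probe, gave signals of 1063.5 intensity units in the FBP1 sample, 678.6 in the empty vector sample and 530.8 in the wt sample. After normalisation the FBP1 sample stood 1.79-fold above the empty vector sample and 2.44-fold above the wt one. Each array had between 20117 and 20190 of 48105 probes detected, that is, with a deposited detection p-value under 0.01. The markers listed for this line (VIM, CD44, EGFR, CAV1, AXL and MSN) were detected on all 3 arrays, 6 of 6. Of the 7 markers that should be low or absent, ESR1, PGR, GATA3 and KRT5 were detected on no array and ERBB2 and EPCAM on all. E-cadherin (CDH1), an epithelial adhesion molecule, was detected in the FBP1 sample alone. On a check for mixed-up samples 1 of the 3 libraries did not match its label. The sample names below are those of the labels, and comparisons that use this library may not set the named conditions against each other.

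All 10 genes were detected on all 3 arrays by their brightest probe, so none entered a comparison through a single array. Levels are normalised log2 intensities, and a difference is the log2 level on the first array minus that on the second. A gene was counted when it differed by at least 1.5-fold. With 1 array per group there is no replicate and no test, and precision is limited by how few arrays there are. The comparisons share arrays and are not independent of one another.

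The S100 genes fell into 3 patterns. S100A4, S100A3 and S100A2 were high in both vector-transfected samples and low in the wt sample. S100P was high in the FBP1 sample against both controls. The other 6 differed by less than 1.5-fold between the FBP1 and empty vector samples and between the empty vector and wt samples, and S100A6 and S100A13 among them passed it between the FBP1 and wt samples.

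**Figure D1:**
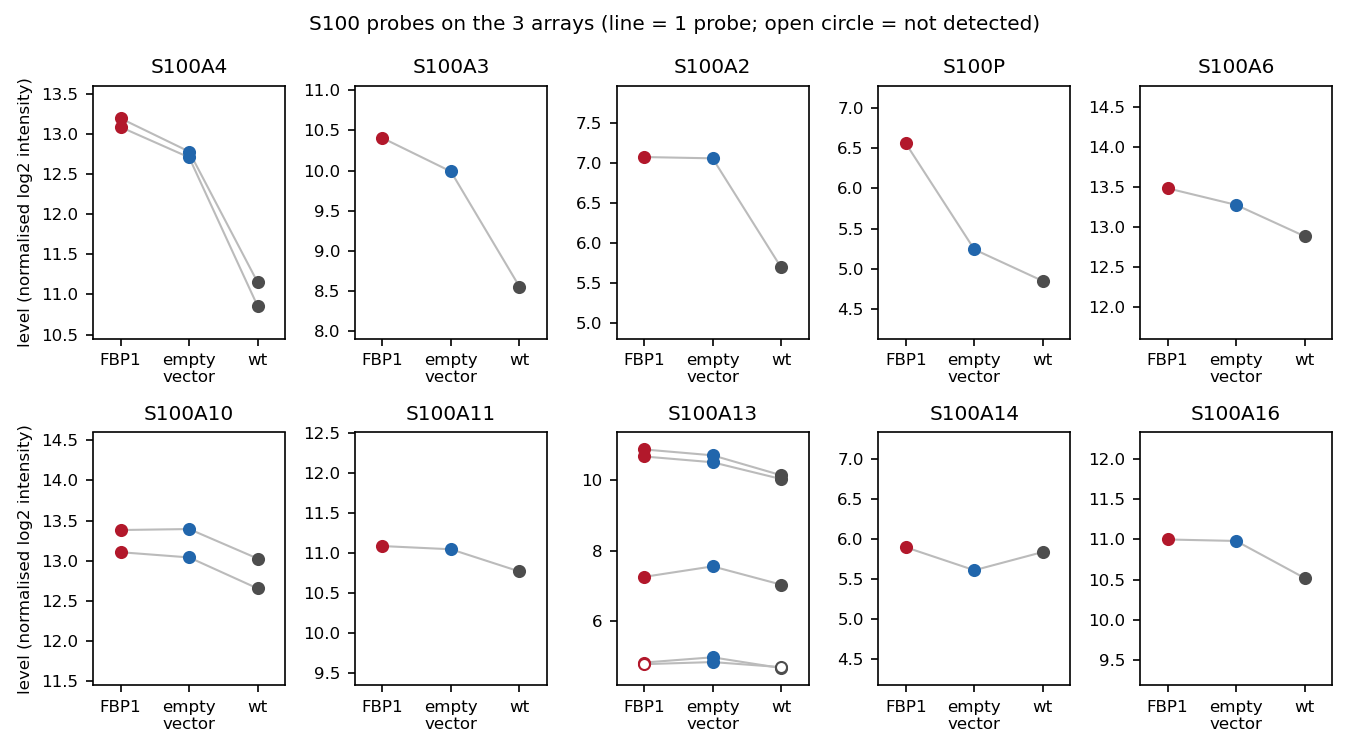
Level (normalised log2 intensity) of each S100 probe detected on at least 1 array, with the FBP1, empty vector and wt samples from left to right; each line joins 1 probe, open circles were not detected, each panel has its own axis, and levels of different probes are not comparable. S100A4, S100A3 and S100A2 are lowest in the wt sample (S100A4 at 11.15 and 10.85), while S100P stands at 6.56 in the FBP1 sample, against 5.24 and 4.85 in the empty vector and wt samples.

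S100A4, which binds the non-muscle myosin heavy chain MYH9 and promotes cell movement, showed the largest difference of the family. Its brightest probe (ILMN_1688780) gave 9016.6 intensity units in the FBP1 sample, 7044.1 in the empty vector sample and 2471.5 in the wt sample. A second probe for the same transcript gave 8414.5, 6736.9 and 2020.2 in the same order of arrays. Both probes thus had their lowest signal in the wt sample by a wide margin and their highest in the FBP1 sample.

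After normalisation the first S100A4 probe had levels of 13.20 in the FBP1 sample, 12.78 in the empty vector sample and 11.15 in the wt sample. The empty vector sample stood 3.10-fold above the wt sample by this probe and 3.62-fold by the second. The FBP1 sample stood 4.13-fold and 4.70-fold above the wt sample, but only 1.33-fold and 1.30-fold above the empty vector sample. Of 12344 genes compared between the controls, 8 lay further above the wt sample than S100A4.

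S100A3, a zinc- and calcium-binding member best known from the cuticle of hair, followed the same order. Its signals were 1335.8 in the FBP1 sample, 1102.0 in the empty vector sample and 467.4 in the wt sample, or levels of 10.41, 9.99 and 8.55. The empty vector sample was 2.70-fold above the wt sample, and 16 genes lay further above. The FBP1 sample was 3.61-fold above the wt sample and 1.34-fold above the empty vector sample.

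S100A2, a mainly nuclear member of basal epithelial cells, was dimmer. It gave 196.3 intensity units in the FBP1 sample, 208.6 in the empty vector sample and 124.0 in the wt sample, with levels of 7.07, 7.05 and 5.69. The FBP1 and empty vector samples therefore stood at nearly the same level, 2.60-fold and 2.57-fold above the wt sample, and 18 genes lay further above between the controls. Its signal in the wt sample was little above the background mean of 87.2, and the fold changed with the background correction. The difference between the empty vector and wt samples was 1.36, but 0.59 in the authors' processed values and 0.73 with no background correction.

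S100A4, S100A3 and S100A2 are consecutive protein-coding genes on chromosome 1, all transcribed from the minus strand. The bases before their starts are shown, with those of S100P, because these 4 genes passed 2-fold in at least 1 comparison. Each sequence holds the 250 bases before the gene's start, 5′ to 3′, from the promoter table of RefSeq, build GRCh38.p14. For S100A2, which has 2 starts there, those of the first listed are shown. Capitals mark TATAAA, the core of a TATA box, and TGANTCA, the letters of an AP-1 site, searched on both strands.
S100A4 (chr1:153545807-153546056, minus strand): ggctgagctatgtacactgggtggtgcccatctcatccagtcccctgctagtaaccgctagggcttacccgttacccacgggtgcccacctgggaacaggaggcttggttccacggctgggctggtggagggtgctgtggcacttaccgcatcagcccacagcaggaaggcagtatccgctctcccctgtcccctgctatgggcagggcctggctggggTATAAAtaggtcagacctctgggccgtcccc
S100A3 (chr1:153549259-153549508, minus strand): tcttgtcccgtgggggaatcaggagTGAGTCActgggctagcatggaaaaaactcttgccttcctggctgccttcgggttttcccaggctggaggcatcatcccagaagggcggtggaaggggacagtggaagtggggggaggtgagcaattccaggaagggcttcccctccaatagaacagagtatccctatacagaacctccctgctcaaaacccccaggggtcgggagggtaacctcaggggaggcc
S100A2 (chr1:153565845-153566094, minus strand): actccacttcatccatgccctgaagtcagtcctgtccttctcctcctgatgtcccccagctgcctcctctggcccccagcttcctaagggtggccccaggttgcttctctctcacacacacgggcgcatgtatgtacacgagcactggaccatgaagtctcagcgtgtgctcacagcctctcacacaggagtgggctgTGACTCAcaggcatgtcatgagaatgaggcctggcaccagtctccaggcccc
S100P (chr4:6693628-6693877, plus strand): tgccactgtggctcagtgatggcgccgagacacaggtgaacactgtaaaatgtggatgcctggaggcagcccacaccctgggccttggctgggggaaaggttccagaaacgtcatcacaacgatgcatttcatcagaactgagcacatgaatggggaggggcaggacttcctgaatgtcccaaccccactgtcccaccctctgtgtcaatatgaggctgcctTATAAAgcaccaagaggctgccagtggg

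With the base just before the start counted as -1, S100A4 carried TATAAA from -31 and S100P from -28. S100A3 carried TGANTCA from -225 and S100A2 from -52. The promoters of all 10 genes matched by symbol. Over the first listed start of each, TATAAA was found in 2 of 10 and TGANTCA in 2 of 10. Over all 14 starts of these genes they were found in 3 and 2. Of all 35116 windows of this length in the table, with every start counted, 10.7% and 6.57% hold them. Of the other motifs searched, GGGCGG was found in 5 of 10 (42.6% of all windows), CCAAT in 1 of 10 (32.0%) and CACGTG in 0 of 10 (6.34%). Over all 14 starts these counts were 6, 3 and 0. No motif was shared by all of S100A4, S100A3 and S100A2. A match describes letters and not a bound site.

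**Figure D2:**
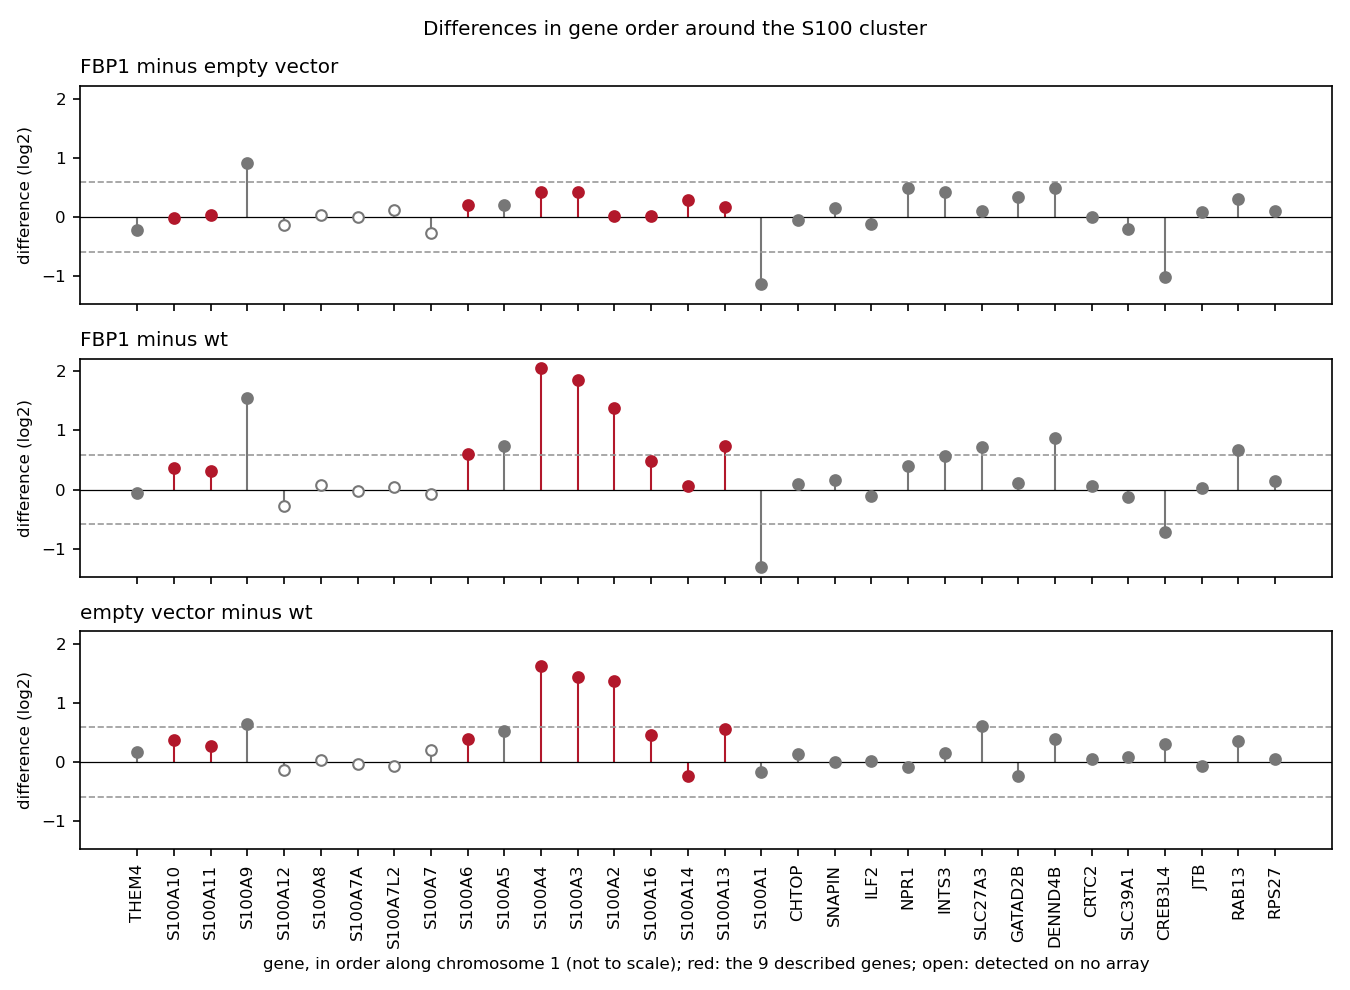
Difference in log2 level between each pair of arrays for genes in their order along chromosome 1, not to scale; red marks the 9 described genes of the cluster, grey other S100 genes and neighbours, open circles genes detected on no array, and dashed lines 1.5-fold. Against the wt sample S100A4, S100A3 and S100A2 stand side by side at 1.63, 1.44 and 1.36 in the empty vector comparison, and the next genes on either side, S100A5 and S100A16, stand at 0.53 and 0.46.

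The genes on either side of this trio differed less. On one side S100A5, whose annotation overlaps that of S100A4, had levels of 5.82 in the FBP1 sample, 5.61 in the empty vector sample and 5.08 in the wt sample. Its FBP1 level was 1.67-fold above the wt sample, past the size counted. S100A5 was dim, with signals of 124.3, 123.0 and 103.4 against background means of 85.7, 88.0 and 87.2, which limits how far the size of its difference can be read. On the other side S100A16 stood in the FBP1 sample 0.02 above the empty vector sample and 0.48 above the wt sample. S100A6, next to S100A5, had 13.49, 13.28 and 12.89. These neighbours kept the order of the trio, with the wt sample lowest, at a smaller size.

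Beyond the cluster, 15 listed neighbours on chromosome 1 were measured. Between the controls 14 were compared, of which 1 (SLC27A3, a fatty acid transport protein gene, at 0.61) was at least 1.5-fold higher in the empty vector sample and 0 were lower. Over all genes compared 4.03% were that much higher and 3.39% that much lower. The median difference of these neighbours was 0.11, beside 0.0073 over all genes compared. The FBP1 sample stood at least 1.5-fold above the wt sample for 3 of 14 (SLC27A3, RAB13 and DENND4B, the highest at 0.87). It stood at least 1.5-fold below the wt sample for 1. Over all genes 9.03% were that much higher and 8.10% that much lower. The median of the 14 was 0.13, beside 0.0050 over all genes. Against the empty vector sample 0 of 15 were at least 1.5-fold higher and 1 was that much lower, beside 6.87% and 6.13% of all genes. The lower gene, CREB3L4, was not detected in the FBP1 sample and was at least 2.01-fold lower there. The genes farthest from the empty vector sample on this list were NPR1 (detected in the FBP1 sample alone, at least 1.40-fold) and DENND4B (0.49) above it, and CREB3L4 and THEM4 (not detected in the FBP1 sample, at least 1.14-fold) below it.

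Markers of other cell types were read beside this difference between the controls, since S100A4 is abundant in fibroblasts and blood cells. Of 8 fibroblast markers, 4 were detected in the FBP1 sample, 4 in the empty vector sample and 3 in the wt sample, with summed signals of 816.3, 807.3 and 823.3. DCN, LUM and PDGFRA were detected on no array. The median of the 4 compared between the controls was 0.21. Of these 0 were at least 1.5-fold higher in the empty vector sample and 1 was that much lower, beside 4.03% and 3.39% of all genes. The lower one was THY1, at levels of 4.98 in the empty vector sample and 6.43 in the wt sample, while COL1A1 (0.34), PDGFRB (0.13) and COL1A2 (at least 1.22-fold) were higher in the empty vector sample, the direction of S100A4. Of 8 blood cell markers measured, 4 were detected on each array, with summed signals of 1326.4 in the FBP1 sample, 1200.4 in the empty vector sample and 1512.8 in the wt sample. PTPRC, the common leukocyte marker, was detected on no array. The median of the 5 compared between the controls was 0.19. Of these 0 were at least 1.5-fold higher in the empty vector sample and 1 was that much lower, beside 4.03% and 3.39% of all genes. The lower one was LCP1, by 2.63-fold, and HBA2 was lower by at least 1.27-fold. CORO1A (0.25), CD14 (0.19) and LYZ (at least 1.21-fold) were higher in the empty vector sample. The part of such cells in the S100A4 difference was not tested. In bulk RNA of this kind, fewer cells of a type and less RNA per cell cannot be told apart.

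S100P, a member first found in placenta that binds ezrin and is secreted by several carcinomas, was the member that stood apart from both controls. Its signals were 159.6 intensity units in the FBP1 sample, 110.1 in the empty vector sample and 96.2 in the wt sample. The deposited detection p-values were 3.75e-17, 1.19e-06 and 0.00486, so the wt signal lay just inside the detection threshold. The estimated background means were 85.7, 88.0 and 87.2, which left little signal above background on either control.

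Normalised levels of S100P were 6.56 in the FBP1 sample, 5.24 in the empty vector sample and 4.85 in the wt sample. The FBP1 sample stood 2.50-fold above the empty vector sample and 3.29-fold above the wt sample, and the empty vector sample 1.31-fold above the wt sample. Of 12895 genes, 37 lay further above both controls, by the smaller difference. The size changed with the background correction and with the offset added to it. Against the empty vector sample the difference was 1.32 as reported with an offset of 16, and 0.84 by the same correction with an offset of 50. It was 0.75 with normexp, also with an offset of 50, and 0.62 with no background correction. In the authors' processed values it was 0.52, short of 1.5-fold. The FBP1 sample was the highest of the 3 under every processing tried.

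Of 5 genes measured beside S100P on chromosome 4, 0 were at least 1.5-fold higher or lower between the FBP1 and empty vector samples. Over all genes 6.87% were that much higher and 6.13% that much lower, so 0 of 5 lay near the background. The median of the 5 was -0.21, beside -0.0090 over all genes. TBC1D14 (-0.20) and BLOC1S4 (-0.19) stood highest and MRFAP1 (-0.31) and KIAA0232 (-0.24) lowest. KIAA0232 was 0.69 above the wt sample in the FBP1 sample and 0.93 above it in the empty vector sample.

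Several markers of luminal breast cells were high together with S100P in the FBP1 sample. Of the 12, 7 were detected in the FBP1 sample, 7 in the empty vector sample and 6 in the wt sample, with summed signals of 8596.2, 6435.6 and 5679.9. Of 8 compared, 4 (AGR2, FOXA1, XBP1 and MUC1) were at least 1.5-fold higher than in the empty vector sample and 0 were that much lower. Over all genes these shares were 6.87% and 6.13%. Against both controls at once 3 of 8 were at least 1.5-fold higher and 0 were that much lower, beside 4.06% and 3.09% of all genes. They were MUC1 (levels of 11.35, 9.64 and 8.65), AGR2 (9.71, 8.37 and 7.93) and FOXA1. FOXA1 had 6.45 in the FBP1 sample and was not detected in the empty vector and wt samples. ESR1, PGR, GATA3 and TFF1 were detected on no array. Against the empty vector sample KRT8 stood at -0.51, KRT18 at 0.05 and KRT19 at 0.07. TFF3 was at least 1.29-fold below the empty vector sample. CDH1 exceeded the empty vector sample by at least 3.63-fold and the wt sample by at least 3.65-fold. Markers of other cells went both ways in the FBP1 sample. Of 5 blood cell markers compared, only the monocyte marker CD14 rose past 1.5-fold from each control, by 2.06-fold (empty vector) and 2.34-fold (wt). Of 5 fibroblast markers, only PDGFRB did so, by 1.52-fold and 1.66-fold. No marker of either list fell that far from each control. Over all genes these shares were 4.06% and 3.09%. HBA2 stood at least 1.53-fold and DPT at least 1.44-fold above the empty vector sample. LCP1 was lower than in the empty vector and wt samples, by 1.33-fold and 3.48-fold. THY1 (at least 1.25-fold and 3.40-fold) and CORO1A (at least 1.35-fold and 1.13-fold) were also lower. Against the empty vector sample the medians were -0.03 (blood) and 0.13 (fibroblast). The part of other cells in the S100P difference was not tested.

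By the distance between both differences from the controls, taken over the 3 arrays among 5298 genes within 1 log2 unit of its mean level, the genes most like S100P were MYH15, CASTOR3P and SORBS2. Their differences from the empty vector sample were 1.30, 1.20 and 1.14, and those from the wt sample 1.68, 1.68 and 1.65. The wt level of MYH15 lay below that of the dimmest detected probe on that array. MYH15 was thus not detected in the wt sample, and its difference there is not one between detected levels.

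The bright members S100A6, S100A10 and S100A11 differed little between the FBP1 and empty vector samples. S100A6, also called calcyclin, gave 11372.0 intensity units in the FBP1 sample, 10323.4 in the empty vector sample and 7836.6 in the wt sample. Its FBP1 level was 1.15-fold above the empty vector sample and 1.51-fold above the wt sample, at the edge of the size counted. The empty vector sample was 1.31-fold above the wt sample.

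S100A10, the partner that joins annexin A2 at the plasma membrane and differs from its relatives in not needing calcium, was read by 2 probes. Its brightest gave 10557.3, 11087.1 and 8554.5 intensity units in the FBP1, empty vector and wt samples, and the other 8500.3, 8550.7 and 6785.9. Both probes had nearly equal levels in the FBP1 and empty vector samples (differences of -0.01 and 0.07) and were lower in the wt sample (0.36 and 0.45 for the FBP1 sample against it).

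S100A11, a partner of annexin A1, gave 2101.1, 2209.3 and 1909.3 intensity units in the same order. Its differences were 0.04 between the FBP1 and empty vector samples and 0.32 between the FBP1 and wt samples. RefSeq lists 10 pseudogenes of S100A11, so its probe may read more than this gene.

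S100A13, which takes part in the export of FGF1 and interleukin 1 alpha, had 6 probes that disagreed. The 2 probes for NM_001024211 were bright, with 1827.2 and 1590.8 intensity units in the FBP1 sample, 1762.9 and 1547.6 in the empty vector sample and 1265.0 and 1179.3 in the wt sample. They placed the FBP1 sample 1.66-fold and 1.56-fold above the wt sample and 1.12-fold above the empty vector sample by both.

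The S100A13 probe for NM_001024212 gave 213.3, 264.6 and 208.5 intensity units in the FBP1, empty vector and wt samples, so the empty vector sample was highest. By it the FBP1 sample was 1.23-fold below the empty vector sample and 1.16-fold above the wt sample. Of the other 3 probes, 2 were detected in the empty vector sample alone and 1 on no array. With all detected probes averaged, S100A13 stood at 0.37 between the FBP1 and wt samples, against 0.73 by the brightest, and no longer reached 1.5-fold.

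S100A14 and S100A16 parted between the controls. S100A14, found mainly in epithelia, was dim, with 127.0, 122.8 and 129.7 intensity units and levels of 5.89, 5.61 and 5.83 in the FBP1, empty vector and wt samples. It was the member that stood lower in the empty vector sample than in the wt sample, by a difference of -0.23. S100A16 gave 1993.2, 2128.2 and 1623.8 intensity units, with the FBP1 sample 1.01-fold above the empty vector sample and 1.40-fold above the wt sample.

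**Figure D3:**
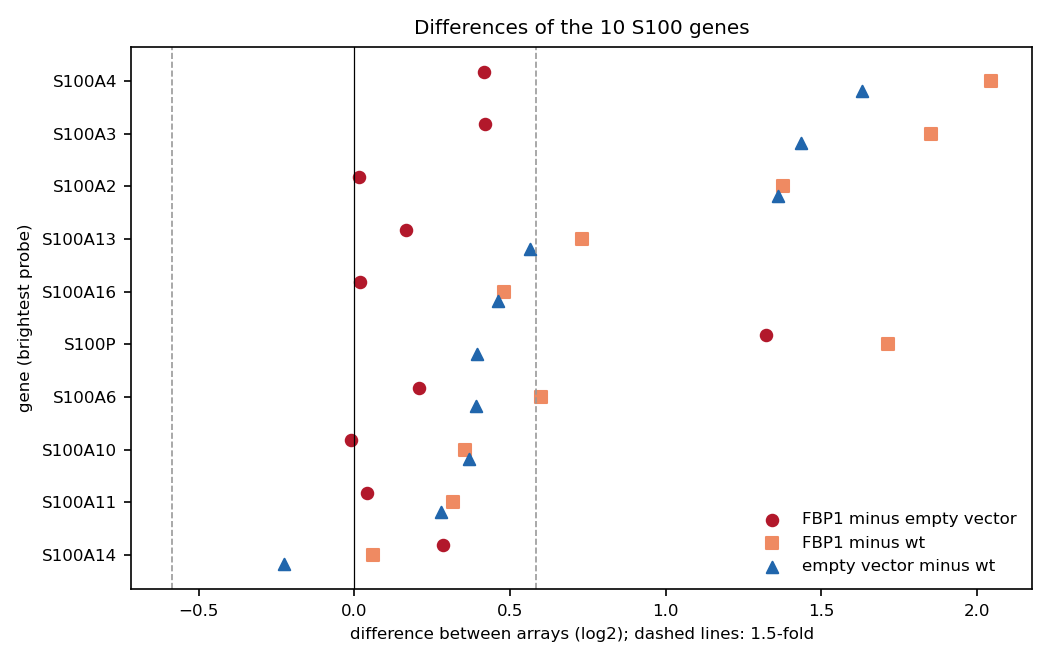
Differences in log2 level of the 10 S100 genes, by brightest probe, for FBP1 minus empty vector (circles), FBP1 minus wt (squares) and empty vector minus wt (triangles), with dashed lines at 1.5-fold. S100P alone passes 1.5-fold between the FBP1 and empty vector samples (1.32), while S100A4, S100A3 and S100A2 pass it in both comparisons with the wt sample.

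Over the family, 1 of 10 genes (S100P) was at least 1.5-fold higher in the FBP1 sample than in the empty vector sample and 0 were lower. Of all 12414 genes compared, 6.87% were that much higher and 6.13% that much lower, so a share of 1 in 10 lay near the background. S100P also passed 2-fold, as did 1.31% of all genes upward and 0.991% downward. The median difference was 0.19, beside -0.0090 over all genes, and 9 of 10 lay above 0, beside 49.0% of all genes. Of the calls over all genes 52.9% were upward, with 65.0% when the authors' processed values were used and 83.0% under median scaling.

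Against the wt sample 6 of 10 were at least 1.5-fold higher in the FBP1 sample (S100A2, S100A3, S100A4, S100A6, S100A13 and S100P) and 0 were lower, with 9.03% higher and 8.10% lower over 12405 genes. At 2-fold these were S100A2, S100A3, S100A4 and S100P, 4 of 10, beside 1.97% of all genes above and 1.48% below. The median was 0.66 and all 10 lay above 0, beside 50.5% of all genes. Upward calls were 52.7% of all calls, and 90.6% with median scaling.

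Between the controls 3 of 10 (S100A2, S100A3 and S100A4) were at least 1.5-fold higher in the empty vector sample, and all 3 reached 2-fold, while 0 were lower. Of all 12344 genes 4.03% were at least 1.5-fold higher, 3.39% were lower, 0.510% were at least 2-fold higher and 0.559% at least 2-fold lower. The median was 0.43, and 9 of 10 lay above 0, beside 51.0% of all genes. Upward calls were 54.3% of all calls, and 75.1% with median scaling. Against both controls at once 1 of 10 was higher in the FBP1 sample and 0 were lower, beside 4.06% and 3.09% of 12895 genes, and the same held at 2-fold, beside 0.651% and 0.403%.

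**Figure D4:**
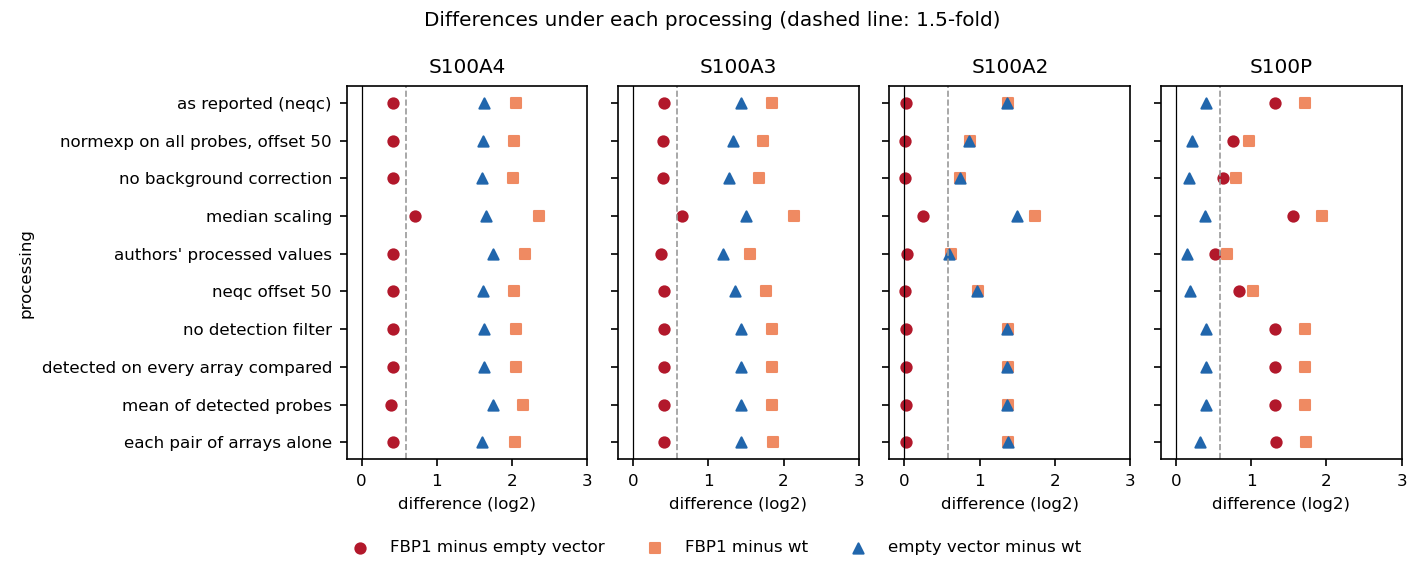
Differences in log2 level of S100A4, S100A3, S100A2 and S100P under each processing (rows), for FBP1 minus empty vector (circles), FBP1 minus wt (squares) and empty vector minus wt (triangles), with the dashed line at 1.5-fold. S100A4 stays between 1.60 and 1.75 for the empty vector sample against the wt sample, whereas the FBP1 minus empty vector difference of S100P runs between 0.52 and 1.56.

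Among 12 other S100-named genes, 5 were detected on at least 1 array. S100A9, which with S100A8 forms the inflammatory protein calprotectin, had levels of 6.21 in the FBP1 sample and 5.30 in the empty vector sample and was not detected in the wt sample. It was 1.87-fold higher in the FBP1 sample than in the empty vector sample and at least 2.89-fold higher than in the wt sample, whereas S100A8 was detected on no array. S100A1, a regulator of calcium handling in muscle, went the other way. It had 5.77 in the empty vector sample and 5.94 in the wt sample and was not detected in the FBP1 sample, which made it at least 2.15-fold and at least 2.42-fold lower there. In RefSeq S100A1 lies within the bounds of S100A13. Between the FBP1 and empty vector samples S100A13 stood at 0.17 by its brightest probe. It stood at -0.30 by the probe for NM_001024212 and at -0.04 with all detected probes averaged. S100PBP, which encodes a nuclear binding partner of S100P, had 8.49, 8.23 and 7.95 in the FBP1, empty vector and wt samples. S100Z was detected in the wt sample alone, and S100A7, S100A7A, S100A7L2, S100A12, S100B and S100G on no array.

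The partners and receptors of S100 proteins mostly differed by less than 1.5-fold. Of 18 compared between the FBP1 and empty vector samples, 3 were at least 1.5-fold higher (IL1A, PLAT and SDC4) and 0 were that much lower. Over all genes these shares were 6.87% and 6.13%. The median of the 18 was 0.08. IL1A, which encodes a cytokine released together with S100A13, had levels of 9.52 in the FBP1 sample, 7.43 in the empty vector sample and 8.91 in the wt sample. PLAT, the tissue plasminogen activator that S100A10 can bind, had 11.88, 10.86 and 11.06. Both were at least 1.5-fold above both controls, 2 of 20 partners compared, and 0 were that much below both. Over all genes these shares were 4.06% and 3.09%.

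ANXA2, the annexin partner of S100A10, and PLAUR, the urokinase receptor, stood lowest against the empty vector sample, at -0.33 and -0.31. MYH9 (11.96, 11.88 and 11.99 in the FBP1, empty vector and wt samples) and EZR (12.56, 12.54 and 12.67), the targets of S100A4 and S100P, were close to level across the arrays. AGER, the gene of RAGE, was detected in the wt sample alone. Against the wt sample 2 of 20 partners were at least 1.5-fold higher in the FBP1 sample and 0 were that much lower. Over all genes these shares were 9.03% and 8.10%. Between the controls 0 of 20 were at least 1.5-fold higher in the empty vector sample and 3 were that much lower (MYH10, IL1A and SDC4). Over all genes these shares were 4.03% and 3.39%. The median of the 20 between the controls was -0.11.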

How the data were processed

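Gene expression was read on 3 bead arrays, 1 each for FBP1 vector, empty vector and wt cells, grouped by the labels. The first deposited table holds a linear signal intensity per probe, per the file headers with a detection p-value beside it, and the authors had neither subtracted background nor normalised between arrays, as its values show. A further deposited table gives an intensity already processed by the authors, by a normalisation not given in the sources used here and used as an alternative. Of 48107 probes, 2 lacked a value and were left out.

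The neqc function of limma 3.58.1 (R 4.3.3) corrected the background, estimated from the detection p-values, with an offset of 16, applied quantile normalisation and took log2. The platform annotation named 1 gene for 30112 probes. Current symbols came from RefSeq. The brightest probe stood for a gene, and a pair of arrays was compared where 1 or both had a detection p-value under 0.01. For a probe undetected in the dimmer sample, an "at least" fold was taken against a floor, the dimmest detected probe's level (4.67, 4.68 and 4.67 in the FBP1, empty vector and wt samples) or the probe's own if higher.

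With 1 array per group no test was made, and genes were counted by size. Named were the 10 members, other detected S100 genes, the 2 highest and 2 lowest of the partner, EF-hand, neighbour and squamous lists, partners apart from both controls, and the 3 genes nearest to the member farthest from both controls. The other genes named, cell type markers and neighbours past 1.5-fold among them, were added after their values were seen. The members and lists were chosen with earlier results of these data known. The steps were tested on simulated data, in which only bright genes were changed and every array had the same background spread. That test does not cover dim genes such as S100P, S100A2 and S100A14. It also does not cover arrays whose background spread differs, here estimated at 4.19, 12.8 and 16.2 for the FBP1, empty vector and wt samples. Alternatives changed the background correction, the scaling, the source of the values, the offset, the filter and the choice of probe. Further steps used Python 3.11.15 with pandas 2.3.3.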

Additional observations from a re-analysis of the deposited data

How the results depend on the processing

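There were 9 alternatives, 8 planned and 1 added after the data were seen (each pair of arrays normalised without the third). Over these, 227 of 270 differences of the 10 genes moved by less than 0.19, the median absolute difference between the controls over all genes. Of those that had reached 1.5-fold, 0 changed sign. Dropping or tightening the detection filter could not move any difference, as all 10 genes were detected on all 3 arrays. Each of these settings gave 30 of the 227. Averaging the detected probes could not move the genes with 1 probe. Under median scaling the median of all genes stood at 0.21 for FBP1 minus empty vector, 0.29 for FBP1 minus wt and 0.08 for empty vector minus wt. As it stands this scaling put 3 genes (S100A3, S100A4 and S100P) at least 1.5-fold above the empty vector sample and 3 above both controls, 9 above the wt sample in the FBP1 sample and 4 above it in the empty vector sample. Relative to the shift of all genes these counts were 1, 1, 6 and 3. With the authors' processed values the counts above the empty vector sample and above both controls were 0 and 0, since S100P stood at 0.52 against the empty vector sample and 0.67 against the wt sample. S100A2, also dim, ran between 0.59 and 1.49 for empty vector minus wt. S100A6 stood at 0.57 for FBP1 minus wt with each pair of arrays normalised alone, short of 1.5-fold. The number of arrays, and signal close to background for S100P, S100A2 and S100A14, limit these values. No paired analysis was possible because each group has 1 array and no test was made.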

Other observations

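Of 11 other EF-hand calcium sensors compared, 0 were at least 1.5-fold higher or lower between any pair of the 3 arrays. Over all genes 6.87% were that much higher and 6.13% that much lower for FBP1 minus empty vector. These shares were 9.03% and 8.10% for FBP1 minus wt and 4.03% and 3.39% for empty vector minus wt. With 11 genes, a count of 0 lay near the background. Their medians were -0.00096 for FBP1 minus empty vector, 0.18 for FBP1 minus wt and 0.20 for empty vector minus wt. Sorcin (SRI) and CHP1 stood highest against the empty vector sample, at 0.19 and 0.11, and CALML4 and RCN2 lowest, at -0.49 and -0.29. CALB2, which encodes calretinin, had levels of 10.86 in the FBP1 sample, 10.84 in the empty vector sample and 10.34 in the wt sample.

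Genes of the squamous programme, many of which share the chromosome 1 region with the S100 genes, were mostly not detected. Of 13 measured, 4 were detected in the FBP1 sample, 5 in the empty vector sample and 3 in the wt sample, and IVL, LORICRIN, FLG, KRT5 and KRT14 were detected on no array. Of 5 compared between the controls, 2 were at least 1.5-fold higher in the empty vector sample and 0 were that much lower. Over all genes these shares were 4.03% and 3.39%. SPRR1A, a cornified envelope precursor, was 1.55-fold higher. DSC3, a desmosomal cadherin, was at least 1.57-fold higher, with a dim signal of 112.9 in the empty vector sample. DSP went the other way, 1.39-fold lower in the empty vector sample. Between the FBP1 and wt samples 1 of 4 was called, DSP, 1.58-fold lower in the FBP1 sample, beside 9.03% higher and 8.10% lower over all genes. Against the empty vector sample SPRR1A (-0.46) and DSC3 (-0.42) stood lowest in the FBP1 sample. SFN stood at -0.12, and TGM1, not detected in the FBP1 sample, was at least 1.06-fold lower there. Of 7 keratinocyte markers measured, 2 were detected in the FBP1 sample, KRT10 and DSC3.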
